A study of Homo sapiens with 5 samples.

Results

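The 10 genes described here sit at the output end of the mitogen-activated protein kinase (MAPK) pathway and were followed across 5 RNA-seq libraries. They are the ERK phosphatases DUSP4 and DUSP6, the inhibitors SPRY1, SPRY2, SPRY4, SPRED1 and SPRED2, and the ETS transcription factors ETV1, ETV4 and ETV5. They were chosen by name, as genes widely used to read ERK activity, and are 10 of the 31029 genes listed for both cell lines. The study silenced BPTF, the defining subunit of the chromatin remodeller NURF, with a short hairpin RNA (shBPTF) delivered by lentivirus and selected with puromycin. The libraries are 2 of 501Mel shBPTF, a human melanoma line, and 3 of Hermes 3A shBPTF, a line of untransformed human melanocytes, and all 5 carry an shBPTF hairpin, of which construct the labels do not say. Libraries of control-hairpin cells were not analysed here, so no effect of shBPTF can be given and the question that remains is how the 10 genes stand in the 2 cell lines after shBPTF. Hermes 3A cells were grown with the phorbol ester TPA, cholera toxin, stem cell factor and endothelin, which the 501Mel medium lacked, so that cell line and culture medium cannot be told apart. The labels give no RAS or RAF genotype for either line, each of which stands for 1 source of cells, and although the study states that infections were repeated, the sources do not say whether these libraries come from separate ones. The p-values therefore measure the spread between these libraries, which may be technical.

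In the MAPK pathway, growth factor receptors load RAS with GTP, RAS recruits RAF kinases, RAF phosphorylates MEK, and MEK phosphorylates ERK. Active ERK enters the nucleus and raises transcription of its own inhibitors: DUSP proteins remove the phosphates from ERK, while Sprouty and SPRED proteins act further up, between the receptor, RAS and RAF. ETV1, ETV4 and ETV5 form the PEA3 group of ETS factors, which carry the signal on to target genes, and the repressor Capicua (CIC) holds several of these genes down until ERK inactivates it. In melanocytes the pathway is driven by the KIT receptor and other growth factors, and in melanoma it is the most frequently activated signalling route.

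Promoter sequences of the genes are shown because Capicua, ETS factors and AP-1 are the factors most often tied to this group. RefSeq start sites on GRCh38.p14 gave windows of 250 bases upstream for 7 of the 10 genes. DUSP4, ETV4 and ETV5 had no window, so the motif counts do not cover them. The words searched on both strands were TGAATGAA, TGAATGGA, TCAATGAA and TCAATGGA for Capicua, CCGGAA as an ETS core and TGANTCA for AP-1, none of which overlaps another in the windows printed. One window is printed for each class of gene, 5′ to 3′ on the strand of the gene, with the matches in capitals. They are DUSP6 (chr12:89352502-89352751, minus strand), SPRY2 (chr13:80341127-80341376, minus strand) and the most upstream of the ETV1 start sites (chr7:13991426-13991675, minus strand).
DUSP6: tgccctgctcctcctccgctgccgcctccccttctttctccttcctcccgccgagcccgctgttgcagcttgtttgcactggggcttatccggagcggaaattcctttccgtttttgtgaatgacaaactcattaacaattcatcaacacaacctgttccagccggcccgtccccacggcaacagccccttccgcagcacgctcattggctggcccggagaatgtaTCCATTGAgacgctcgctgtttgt
SPRY2: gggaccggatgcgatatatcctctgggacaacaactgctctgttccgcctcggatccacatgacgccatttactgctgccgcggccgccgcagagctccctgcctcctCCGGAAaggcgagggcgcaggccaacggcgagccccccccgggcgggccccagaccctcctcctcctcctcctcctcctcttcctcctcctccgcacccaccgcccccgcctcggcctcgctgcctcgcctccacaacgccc
ETV1: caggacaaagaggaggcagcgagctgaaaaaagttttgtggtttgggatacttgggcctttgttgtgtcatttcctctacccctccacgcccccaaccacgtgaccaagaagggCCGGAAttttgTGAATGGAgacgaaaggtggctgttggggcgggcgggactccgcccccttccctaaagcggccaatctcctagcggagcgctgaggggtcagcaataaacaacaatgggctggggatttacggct

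The DUSP6 window holds TCCATTGA, the reverse complement of TCAATGGA, 24 to 17 bases upstream of the start site. The ETV1 window holds CCGGAA 136 to 131 bases and TGAATGGA 125 to 118 bases upstream, and the SPRY2 window holds CCGGAA 142 to 137 bases upstream. A Capicua word was found for 2 of the 7 genes with a window (DUSP6 and ETV1), against 3.92% of the 27305 genes in the table. The ETS core was found for 3 of 7 (ETV1, SPRY1 and SPRY2), against 17.2% of genes, and the AP-1 word for 0 of 7, against 8.06% of genes. These genes have 16 windows, 6 of them of ETV1 and 3 of SPRY2, and by window the Capicua words were in 2 of 16 against 3.18% of 35116 windows and the ETS core in 5 of 16 against 14.5%. The SPRY2 and ETV1 windows printed were chosen for their matches, and the other 2 SPRY2 windows hold none. A match of letters is not a bound site, and these windows say nothing about the factors themselves.

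The libraries held 30073071 to 43032311 counts, so that 3 counts correspond to 0.0697 to 0.0998 CPM (the count of a gene divided by its library total and multiplied to a common base), and every one of the 10 genes had at least 52 counts in each library. BPTF itself stood at 57.8 and 65.8 CPM in 501Mel cells and at 45.8 to 54.1 CPM in Hermes 3A cells (log2 fold change 0.23, edgeR quasi-likelihood test, adjusted p = 0.211), and without control libraries its level checks nothing about the knockdown. The 7 melanocyte markers fixed for the check of the labels were high in both lines, with a summed level of 12718 to 19661 CPM in 501Mel cells and 31651 to 32728 CPM in Hermes 3A cells, although DCT was at 7.37 to 13.1 CPM in Hermes 3A cells against 1068 and 1300.3 in 501Mel cells. Markers of leukocytes and endothelium summed to at most 0.612 CPM. Fibroblast markers summed to 4.38 and 19.1 CPM in 501Mel cells and to 78.6 to 190 CPM in Hermes 3A cells, where nearly all of it was COL1A2, with COL3A1 and DCN at or below 0.299 CPM. In Hermes 3A cells replicate 1 stood apart from the others, with a chi-square per gene of 94.7 and 99.7 against replicates 2 and 3, which differed from each other by 21.3, and the 501Mel replicates differed by 74.1, far above counting noise.

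Between the shBPTF lines, the ETS factors ETV5 and ETV1 and the inhibitor SPRED2 were higher in 501Mel cells, and the phosphatase DUSP4 was higher in Hermes 3A cells. ETV5 was 2.79-fold, ETV1 3.14-fold and SPRED2 1.64-fold higher in the melanoma line, and DUSP4 2.70-fold higher in the melanocyte line. The other 6 genes did not pass the test. A gene was called at a Benjamini-Hochberg adjusted p under 0.05 in the edgeR quasi-likelihood test over 17918 genes. In that fit 48.4% of all genes tested were called, 24.3% higher in 501Mel cells and 24.1% higher in Hermes 3A cells, so 4 called of 10, with 3 and 1 in the 2 directions, is close to the transcriptome as a whole. With a 2-fold difference also required, DUSP4, ETV1 and ETV5 remained, beside 34.3% of all genes tested. The median log2 fold change of the 10 genes was 0.78, beside 0.02 over all genes tested. A fit without replicate 1 of both lines was chosen after seeing the data. It leaves 1 501Mel library, so only its log2 fold changes are given. They were 2.76 for ETV4, 2.48 for ETV1, 2.03 for SPRY1, 1.78 for ETV5, 0.81 for SPRED2 and 0.56 for SPRY4. On the other side were DUSP6 (-0.27), SPRED1 (-0.41), DUSP4 (-1.03) and SPRY2 (-1.50).

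**Figure D1:**
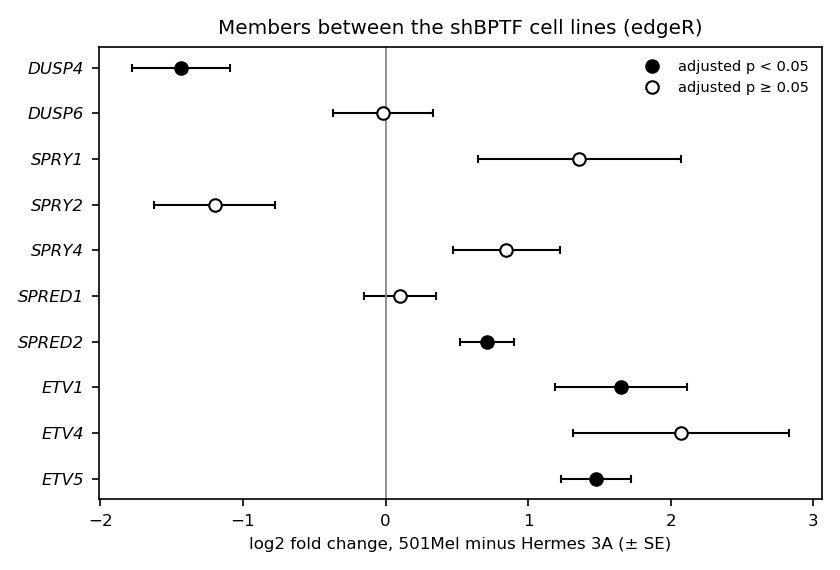
Log2 fold change of the 10 genes, 501Mel shBPTF minus Hermes 3A shBPTF, from the edgeR quasi-likelihood fit; bars are 1 standard error, filled points have an adjusted p under 0.05. ETV1, ETV5 and SPRED2 are filled to the right of 0 and DUSP4 to the left, and DUSP6 lies at -0.02.

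DUSP4 and DUSP6 are dual-specificity phosphatases that inactivate ERK, DUSP4 in the nucleus and DUSP6 in the cytoplasm. DUSP4 (ENSG00000120875) stood at 169 and 161 CPM in the 501Mel libraries and at 617, 294 and 354 CPM in the Hermes 3A libraries. Both 501Mel values lay under the lowest Hermes 3A value, and the highest Hermes 3A library was 2.10-fold above the lowest. The means were 165 ± 5.68 CPM (SD, n = 2) in 501Mel cells and 422 ± 172 CPM (SD, n = 3) in Hermes 3A cells, a log2 fold change of -1.44 (SE 0.346, edgeR adjusted p = 0.0123). Its call was lost when either 501Mel library was left out, which leaves 1 library of that line (log2 fold change -1.46 and -1.43). Over the alternatives the log2 fold change ran from -1.71 to -1.03.

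DUSP6 (ENSG00000139318, chromosome 12) is the phosphatase most used as a readout of ERK. It stood at 122 and 60.6 CPM in 501Mel cells and at 119, 73.7 and 71.0 CPM in Hermes 3A cells. The 2 libraries numbered 1 were nearly level, and the ranges of the lines overlapped. The log2 fold change was -0.02 (SE 0.350, edgeR adjusted p = 0.968), with a 95% interval of -0.84 to 0.80. Any difference within that interval is compatible with these libraries. The share of DUSP4 in the summed DUSP4 and DUSP6 level per kb of exon was 46.8% and 62.9% in the 501Mel libraries and 71.8% to 76.8% in the Hermes 3A libraries. With the median transcript length it was 25.8% and 40.1% against 50.2% to 56.8%, so which of the pair is the larger in 501Mel cells depends on the length, whereas the share of DUSP4 was larger in each Hermes 3A library than in both 501Mel libraries with either.

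The Sprouty proteins are inhibitors that act below growth factor receptors, and their 3 genes did not share a direction. SPRY2 (ENSG00000136158, chromosome 13) stood at 58.5 and 26.1 CPM in 501Mel cells and at 129, 62.5 and 83.6 CPM in Hermes 3A cells. All Hermes 3A values lay above both 501Mel values. The log2 fold change was -1.20 (SE 0.424, 95% interval -2.19 to -0.20), and the edgeR adjusted p of 0.0512 missed the threshold. SPRY2 was called with the DESeq2 Wald test (-1.22, adjusted p = 0.0137) but not without Hermes 3A replicate 1 (-0.85, edgeR adjusted p = 0.0989). Over the alternatives it ran from -1.88 without 501Mel replicate 1 to -0.75 without 501Mel replicate 2, each with 1 501Mel library left.

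SPRY4 (ENSG00000187678, chromosome 5) stood at 61.1 and 28.8 CPM in 501Mel cells and at 32.1, 17.9 and 20.8 CPM in Hermes 3A cells. The lower 501Mel library fell inside the Hermes 3A range, and the log2 fold change of 0.85 (SE 0.373, 95% interval -0.03 to 1.72) had an edgeR adjusted p of 0.0982. It ran from 0.22 without 501Mel replicate 1 to 1.27 without 501Mel replicate 2, each with 1 501Mel library left. With a replicate block it was 0.74 (edgeR adjusted p = 0.0263), and with the DESeq2 Wald test 0.83 (adjusted p = 0.0877). SPRY1 (ENSG00000164056, chromosome 4), the lowest of the 10 genes, stood at 13.4 and 7.08 CPM in 501Mel cells and at 7.68, 1.71 and 1.73 CPM in Hermes 3A cells. Replicates 2 and 3 of Hermes 3A had 70 and 52 counts, whereas replicate 1 had 320 and lay within the 501Mel range. The log2 fold change of SPRY1 was 1.36 (SE 0.712, edgeR adjusted p = 0.153). Without Hermes 3A replicate 1 it was 2.51 (edgeR adjusted p = 0.00335), and without Hermes 3A replicate 3 it was 0.96 (adjusted p = 0.343). Over the alternatives it ran from 0.84 to 2.51.

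Per kb of exon, SPRY2 made up 60.3% and 58.2% of the summed SPRY1, SPRY2 and SPRY4 level in the 501Mel libraries and 86.1%, 86.7% and 88.4% in the Hermes 3A libraries. SPRY4 made up 29.1% and 29.7% in 501Mel cells and 9.95% to 11.5% in Hermes 3A cells. SPRY1 made up the rest, 10.6% and 12.1% in the 501Mel libraries against 3.95% in Hermes 3A replicate 1 and at most 1.82% in Hermes 3A replicates 2 and 3. The SPRY2 and SPRY4 shares of a line lay close together, although the levels themselves differed by up to 2.24-fold for SPRY2 within 501Mel cells. With the median transcript length in place of the exon length, SPRY4 and not SPRY2 was the larger share in 501Mel cells (56.2% and 56.5%), so the order of the pair there depends on the length used, whereas SPRY2 stayed the largest in Hermes 3A cells (66.4% to 69.6%).

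The SPRED proteins bind neurofibromin and keep RAS from activating RAF. SPRED2 (ENSG00000198369, chromosome 2) stood at 116 and 101 CPM in 501Mel cells and at 75.6, 59.2 and 54.4 CPM in Hermes 3A cells. The lines did not overlap, and the means were 109 ± 10.9 CPM (SD, n = 2) and 63.1 ± 11.1 CPM (SD, n = 3), a log2 fold change of 0.71 (SE 0.191, edgeR adjusted p = 0.0184). The call was lost without Hermes 3A replicate 2 or 3 (edgeR adjusted p = 0.0871 and 0.0873). Without 501Mel replicate 1, which leaves 1 501Mel library, the log2 fold change was 0.61. SPRED1 (ENSG00000166068, chromosome 15) stood at 85.5 and 45.0 CPM in 501Mel cells and at 55.9, 55.7 and 62.7 CPM in Hermes 3A cells, where its SD of 3.98 CPM was the smallest among the 10 genes but for that of SPRY1. The 501Mel values lay on both sides of the Hermes 3A range. The log2 fold change was 0.10 (SE 0.252, 95% interval -0.49 to 0.69, edgeR adjusted p = 0.768). Over the alternatives it ran from -0.43 without 501Mel replicate 1 to 0.47 without 501Mel replicate 2. Without replicate 1 of both lines it was -0.41. Each of these fits leaves 1 501Mel library.

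**Figure D2:**
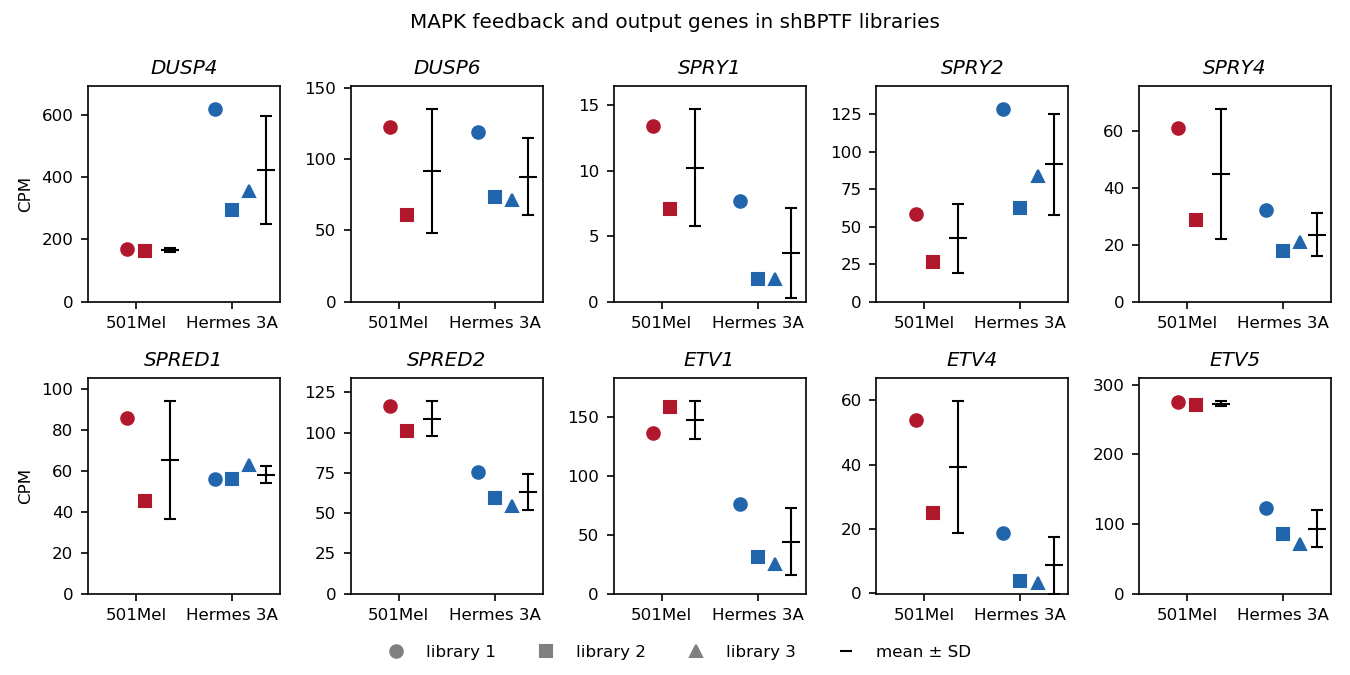
CPM of the 10 genes in each library, 1 panel per gene with its own axis from 0; points are libraries (circle, square and triangle for replicates 1, 2 and 3), and the bar and whiskers beside them give the mean and SD of 501Mel shBPTF (n = 2) and Hermes 3A shBPTF (n = 3). The library numbered 1 is the highest of its line for 9 of 10 genes in each line, and ETV5 and ETV1 are higher in both 501Mel libraries than in any Hermes 3A library.

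All 3 PEA3 factors had higher CPM in both 501Mel libraries than in any Hermes 3A library, and 2 of them passed the test. ETV5 (ENSG00000244405, chromosome 3) stood at 275 and 270.0 CPM in 501Mel cells and at 123, 85.5 and 70.8 CPM in Hermes 3A cells. The means were 273 ± 3.58 CPM (SD, n = 2) and 92.9 ± 26.7 CPM (SD, n = 3), a log2 fold change of 1.48 (SE 0.246, edgeR adjusted p = 0.00278). Its call held in every alternative that kept both 501Mel libraries, as did that of DUSP4 among the 10 genes. Over all 12 alternatives the log2 fold change of ETV5 was 1.26 to 1.78.

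ETV1 (ENSG00000006468, chromosome 7) stood at 136 and 159 CPM in 501Mel cells and at 76.5, 31.0 and 25.2 CPM in Hermes 3A cells. The lowest 501Mel library was above the highest Hermes 3A library, and the log2 fold change was 1.65 (SE 0.460, edgeR adjusted p = 0.0214). Its call was lost without Hermes 3A replicate 2 or 3 (edgeR adjusted p = 0.0626 and 0.0566). Without 501Mel replicate 1 or 2, which leaves 1 501Mel library, the log2 fold change was 1.77 and 1.51. ETV4 (ENSG00000175832, chromosome 17) stood at 53.7 and 24.9 CPM in 501Mel cells and at 18.8, 3.92 and 3.33 CPM in Hermes 3A cells. Both 501Mel values were above all Hermes 3A values, but the libraries of a line differed by up to 5.64-fold. The log2 fold change of 2.07 was the largest of the 10, and its SE of 0.759 left an edgeR adjusted p of 0.0570. Without Hermes 3A replicate 1 it was 3.38 (edgeR adjusted p = 0.00116), and without Hermes 3A replicate 3 it was 1.63 (adjusted p = 0.130). Over the alternatives it ran from 1.43 to 3.38.

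Of the 10 genes, 4 had CPM ranges that lay above in 501Mel cells (SPRED2, ETV1, ETV4 and ETV5) and 2 that lay above in Hermes 3A cells (DUSP4 and SPRY2). Over all genes tested the ranges did not overlap for 69.9%, with 501Mel cells above for 38.0% and Hermes 3A cells above for 31.9%. ETV4 shares exon sequence on GENCODE 29 with DHX8 on the opposite strand, ETV5 with DGKG on the same strand and DUSP6 with an antisense gene. DHX8 had 2865 to 4141 counts per library. DGKG had 627 and 659 counts in the 501Mel libraries and 352, 73 and 86 in the Hermes 3A libraries, the same direction as ETV5. Since the strand setting of the counting is not given, the part of DHX8 and DGKG in the ETV4 and ETV5 counts was not tested.

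Compared per kb of exon, which puts genes of different length on one scale, the highest of the 10 genes in 501Mel cells was ETV5 (47.0 CPM per kb), followed by DUSP4 (22.7), SPRED2 (21.1), DUSP6 (19.8), ETV1 (15.3), SPRY2 (13.9), ETV4 (10.9), SPRED1 (7.90), SPRY4 (6.85) and SPRY1 (2.58). Among neighbours in this order the library ranges were separate for ETV5 and DUSP4 and for SPRY4 and SPRY1, and overlapped for the other pairs. In Hermes 3A cells the order was DUSP4 (58.1 CPM per kb), SPRY2 (30.1), DUSP6 (19.0), ETV5 (16.0), SPRED2 (12.2), SPRED1 (7.04), ETV1 (4.60), SPRY4 (3.60), ETV4 (2.40) and SPRY1 (0.936). There the ranges of neighbours were separate for SPRED2 and SPRED1. With the median transcript length, 3 of the 10 genes kept their place in 501Mel cells while 4 did so in Hermes 3A cells. ETV5 then came first in both lines, in Hermes 3A cells at 162 CPM per kb against 99.2 for DUSP4. SPRY2, at 38.0 CPM per kb, fell from place 2 to place 7, so the head of the Hermes 3A order depends on the length used. The median length is 0.5735 kb for ETV5 against 5.80 kb of exon, and 4.25 kb against 7.26 kb for DUSP4. The first place of ETV5 in Hermes 3A cells thus rests on a short median length. SPRY1 was last in both lines with either length.

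Within each line, the library numbered 1 held more of these transcripts than the others. This pattern was noticed after the values were seen and is given as a description, with no test. On the log2(CPM + 0.5) scale, replicate 1 was above replicate 2 of 501Mel cells for 9 of the 10 genes (median difference 0.90) and above the mean of replicates 2 and 3 of Hermes 3A cells for 9 of 10 (median 0.77). It was above in both lines for 8 of the 10, against 26.2% of the 13823 genes that reached 10 counts in all 5 libraries, whose median differences were 0.04 and -0.06. The exceptions were ETV1, at -0.22 in 501Mel replicate 1, and SPRED1, at -0.08 in Hermes 3A replicate 1. DUSP4 (0.07) and ETV5 (0.03) were nearly level between the 501Mel libraries.

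At least 2-fold higher in 501Mel replicate 1 were DUSP6, SPRY2, SPRY4 and ETV4, 4 of 10 genes where the background was 3.26%. In Hermes 3A replicate 1 they were SPRY1, ETV1 and ETV4, 3 of 10 where the background was 1.92%. ETV4 was the gene on both lists, at 2.14-fold and 4.68-fold on this scale. Hermes 3A replicates 2 and 3 differed by at most 0.42 (SPRY2) on the log2 scale. The libraries numbered 1 also had the largest total of their line, at 43032311 and 41653084 counts.

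The kinases above these genes did not share that pattern. Of the 12 genes of the RAS, RAF, MEK and ERK core, 0 were above in both lines, with median differences of -0.12 and -0.02. Of 13 measured other genes that respond to ERK, 6 were above in both lines and 2 were at least 2-fold higher in both. These were HMGA2, a chromatin architecture gene, at 207 and 42.8 CPM in 501Mel cells and 9.34, 2.64 and 1.60 CPM in Hermes 3A cells, and FOSL1, an AP-1 subunit, at 8.60 and 1.64 CPM and at 115, 50.5 and 58.4 CPM. Above in both lines were also 8 of 16 adaptors, exchange factors and GTPase-activating proteins of RAS, 2 of 7 other DUSP genes and 3 of the 14 measured genes of the list that holds the other ETS factors, Capicua and its partners ATXN1 and ATXN1L.

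Among the markers, 0 of the 7 melanocyte genes were above in replicate 1 of both lines (median differences -0.62 and -0.07). In 501Mel replicate 1 they were all lower, and in Hermes 3A replicate 1 the pigment enzymes TYRP1 (0.76) and TYR (0.07) and the melanosome gene MLANA (0.57) were higher and the other 4 lower. Of the 3 fibroblast markers with enough counts, COL1A1, LUM and PDGFRA, all were at least 2-fold higher in 501Mel replicate 1 and LUM also in Hermes 3A replicate 1, at levels of at most 8.34 CPM. The summed fibroblast list was higher in replicate 1 of 501Mel cells (19.1 against 4.38 CPM) and lower in replicate 1 of Hermes 3A cells (78.6 against 184 and 190 CPM). The part of these genes, of depth and of library preparation in the pattern was not tested. In bulk RNA, fewer cells with a transcript and less of it per cell cannot be told apart.

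**Figure D3:**
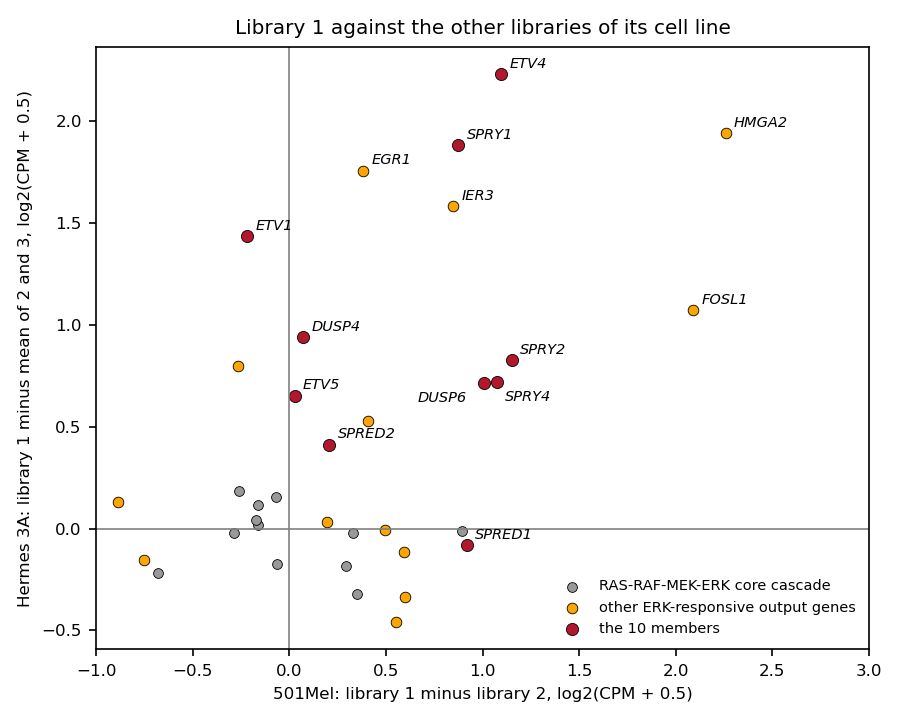
Difference of replicate 1 from the other libraries of its line on the log2(CPM + 0.5) scale, 501Mel on the horizontal and Hermes 3A on the vertical axis; each point is a gene of the 10 (red), of the RAS-RAF-MEK-ERK core (grey) or of the other ERK-responsive outputs (orange). Of the 10 genes, 8 lie to the upper right of the zero lines, and 0 of the 12 core genes do.

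The rest of the pathway was compared between the lines with the same fit, and 67 of its 69 listed genes were tested. In it 12 genes were called higher in 501Mel cells, 22 higher in Hermes 3A cells and 33 were not called. The median log2 fold change was -0.09. Of all genes tested, 24.3% were called higher in 501Mel cells and 24.1% higher in Hermes 3A cells, with a median of 0.02. The counts per list below stand beside these shares. In the core cascade 1 of 12 was higher in 501Mel cells, the GTPase NRAS (398 against 191 CPM, log2 fold change 1.00, edgeR adjusted p = 0.00186). The GTPase HRAS (-1.33, edgeR adjusted p = 0.00113) and the kinase MAP2K2 (-0.97, adjusted p = 0.00203) were higher in Hermes 3A cells.

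Of 17 adaptors and regulators of RAS, 5 were higher in 501Mel cells while 4 were higher in Hermes 3A cells. The largest difference was that of RASGRP1, an exchange factor for RAS that is activated by diacylglycerol and phorbol esters, at 11.6 and 10.8 CPM in 501Mel cells and 0.266 to 0.408 CPM in Hermes 3A cells (log2 fold change 4.89, edgeR adjusted p = 0.000100). RASGRF2 and RASGRF1, also exchange factors, were higher in 501Mel cells by 1.79 and 1.62 on the log2 scale. The GTPase-activating proteins RASA3 (-1.72) and RASA1 (-1.01) and the adaptor SHC1 (-0.79) were higher in Hermes 3A cells.

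Among the 8 other DUSP genes, 3 were called higher in Hermes 3A cells by the edgeR test, as was DUSP4, and 5 were not called. DUSP10, a phosphatase that prefers p38 and JNK, stood at 19.5 and 16.5 CPM in 501Mel cells and 113, 94.5 and 86.9 CPM in Hermes 3A cells (log2 fold change -2.52, edgeR adjusted p = 0.000135), and DUSP8 differed by -1.51. DUSP2 had 0 counts in both 501Mel libraries and 467 in the Hermes 3A libraries together, at least 112-fold higher in Hermes 3A cells when 3 counts over the 501Mel group are taken as the floor. The list's median was -0.50, also with DUSP2 set at its bound.

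Of the 14 tested other ERK-responsive genes, 5 were higher in 501Mel cells while 6 were higher in Hermes 3A cells, with a median of -0.65. HMGA2 (log2 fold change 4.67), the ephrin receptor EPHA4 (4.32) and the EGF receptor inhibitor ERRFI1 (2.21) were higher in 501Mel cells. FOSL1 (-3.95), the cytokine LIF (-3.65) and the cyclin CCND1 (-2.03) were higher in Hermes 3A cells, CCND1 at 1048 to 1942 CPM against 327 and 393.

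Of 16 tested genes of the list of other ETS factors, Capicua and its partners, 1 was higher in 501Mel cells, GABPA by 0.44 on the log2 scale, and 6 were higher in Hermes 3A cells, with a median of -0.08. Capicua (CIC) stood at 64.2 and 62.4 CPM in 501Mel cells and at 172, 235 and 246 CPM in Hermes 3A cells, with no overlap, and was 3.58-fold higher in Hermes 3A cells (log2 fold change -1.84, SE 0.177, edgeR adjusted p = 0.000292). The ETS factors ELF4 and ERG were almost without reads in 501Mel cells, with 1 and 2 counts in all, against 4514 and 406 in Hermes 3A cells. Their ratios were 3243 (95% exact counting interval 582 to 128120) and 146 (40.1 to 1208).

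**Figure D4:**
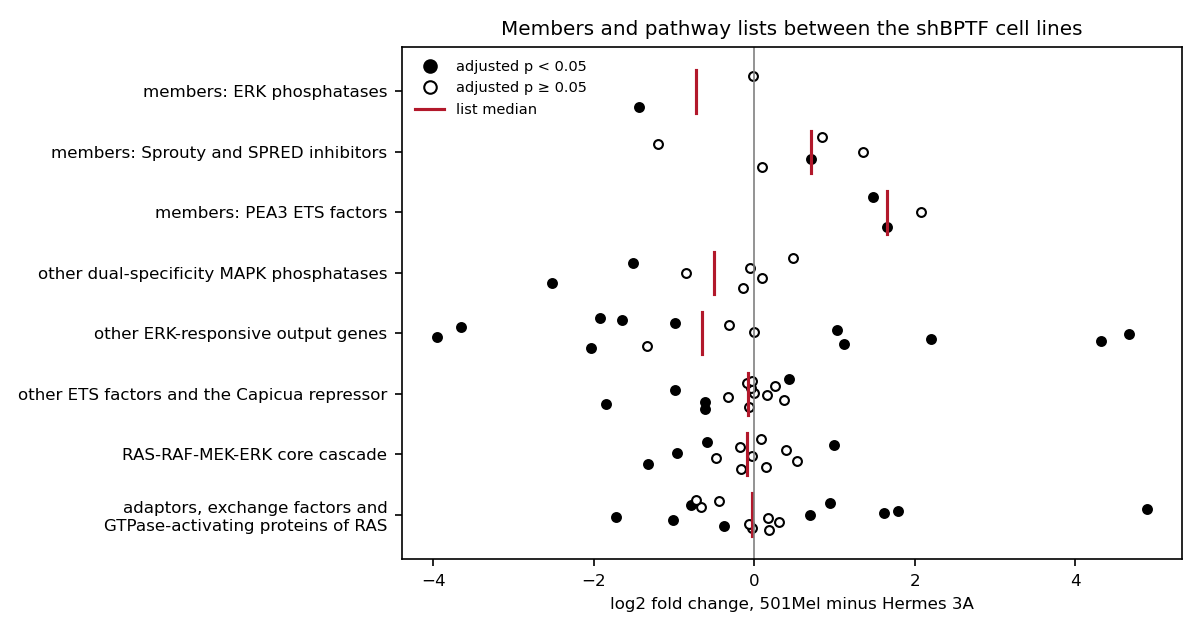
Log2 fold change, 501Mel shBPTF minus Hermes 3A shBPTF, of the 10 genes by class and of 5 other lists of the pathway; filled points have an edgeR adjusted p under 0.05, open points do not, and red lines are list medians. DUSP2, ELF4 and ERG, with at most 2 counts in 501Mel cells, are left out of the points; PEA3 factors lie to the right of 0, while the list medians of the other DUSP genes and of the other ERK-responsive genes lie to the left.

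The gene of the other lists whose centred log2 CPM over the 5 libraries was nearest to that of each of the 10, by root mean square difference among 68 candidates, is given as a description. SPRED2 lay nearest to RASAL2 (0.12), SPRED1 to ELK4 (0.15), SPRY4 to DUSP9 (0.24), DUSP6 to DUSP9 (0.29), ETV5 to RASGRF1 (0.30), DUSP4 to HRAS (0.31) and SPRY2 to PHLDA1 (0.39). ETV1 (RASGRF1, 0.60), SPRY1 (DUSP9, 0.64) and ETV4 (ERRFI1, 0.88) had no gene closer than that.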

How the data were processed

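RNA-seq of shBPTF cells was analysed in 2 libraries of 501Mel and 3 of Hermes 3A, grouped by cell line as labelled. Total RNA was depleted of ribosomal RNA and the libraries were treated with duplex-specific nuclease, which removes abundant sequences and can compress high levels. The authors deposited raw read counts per Ensembl gene. The submitters' processing notes name hg19, CASAVA 1.8, TopHat 1.4.1 and Bowtie 0.12.7; the counting program, annotation and strand setting are not given in the sources used here. Depth was 30073071 to 43032311 counts, and floors and intervals of counts cover counting error only.

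Counts were divided by library totals to give CPM. Genes listed for both lines (31029 of 37259 in 501Mel and 34033 in Hermes 3A) were tested with edgeR 4.0.16 in R 4.3.3 (TMM, filterByExpr, quasi-likelihood test, Benjamini-Hochberg over 17918 genes, called at an adjusted p under 0.05), with no covariate, after the script was tested on simulated data. Genes in 1 list only held at most 0.712% of a library. Names, lengths and coordinates come from GENCODE 29 on GRCh38, promoters from RefSeq GRCh38.p14, neither of which is the build of the reads. Alternatives were DESeq2 1.42.0, other size factors, no filter, a replicate block, a 2-fold minimum, another gene length and each library left out. Added outside the plan were a fit of genes in either list, with unlisted ones set to 0, and a fit without replicate 1 of both lines. The 12 alternatives per gene include both. Fits without a 501Mel library, or without replicate 1 of both lines, leave 1 501Mel library, so their spread comes from Hermes 3A libraries alone. The genes, lists and tests were chosen with earlier results of these data known. Named were the 10 genes, BPTF, the 3 called genes of each list with the largest change in each direction, nearest genes and the markers needed; HMGA2, FOSL1, TYRP1, TYR, MLANA, COL1A1, LUM and PDGFRA were named in the comparison of libraries after their values were seen. Of the core cascade, 1 gene is counted in its list but not reported here by name.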

Additional observations from a re-analysis of the deposited data

How the results depend on the processing

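Of the 10 genes, 3 were called higher in the melanoma line and 1 in the melanocyte line. The first count became 5 with no filter on low counts, where 30.7% of all genes tested were called. It was 1 without Hermes 3A replicate 2 or 3 (39.2% and 38.1% of all genes called). Without Hermes 3A replicate 1 it was 6 (52.3%). The second became 2 with DESeq2 size factors (47.9% of all genes called), the DESeq2 Wald test (49.6%), no filter or without Hermes 3A replicate 2. Fits that leave 1 501Mel library are given by their log2 fold changes, not by counts of genes called. With a 2-fold difference also required, the pathway lists had 14 genes higher in Hermes 3A cells instead of 22. In 501Mel cells they had 8 instead of 12, and over all genes tested the share called was 34.3% instead of 48.4%. Replicate numbers are shared between the lines but nothing says that they pair the libraries. The difference of replicates 1 and 2 in 501Mel cells had a Pearson correlation of 0.13 with that in Hermes 3A cells, over 13823 genes. With a replicate block, 5 of the 10 were called higher in the melanoma line and 2 in the melanocyte line, adding ETV4, SPRY4 and SPRY2. Over all genes 41.8% were called. DUSP6, near 0, changed sign with total counts only (0.059) and when libraries were left out (-0.60 to 0.38), and SPRED1 did so when libraries were left out (-0.43 to 0.47) and without replicate 1 of both lines (-0.41). The other 8 genes kept their direction in all 12 alternatives. With the median transcript length 3 and 4 of 10 places per kb were kept. The causes were not tested. With 2 and 3 libraries, the 95% interval of DUSP6 reached about 0.8 on the log2 scale in either direction. SPRY2, at -1.20, was not called in the main fit (edgeR adjusted p = 0.0512). It was the gene added in each fit above that called 2 genes higher in the melanocyte line.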
